A study of Homo sapiens with 12 samples.

Results

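The 10 genes described here are EPCAM, CLDN7, OCLN, TJP1, CDH1, CDH2, DSP, VIM, ZEB1 and SNAI2, which encode proteins of epithelial cell junctions, the main markers of the mesenchymal state and regulators that act on both. They were chosen by name, with earlier results of these data known. Each matched 1 Ensembl identifier in the tables of both cell lines, making 10 of the 59424 genes listed. RNA-seq had been done on stable lines of 2 human prostate cancer cell lines, each line made by lentiviral transduction, so that control and test cells alike carry an integrated construct. CWR22RV1 cells held either a GALNT7-targeting shRNA (GALNT7 KD) or a control (shControl). In the second line, DU145, cells carried a control construct (OE control) or a construct for GALNT7 overexpression (GALNT7 OE). The question was which genes respond when GALNT7, an enzyme that adds GalNAc sugars to proteins at the start of O-linked glycosylation, is lowered or raised. Each of the 4 groups had 3 libraries, which the labels call biological replicates. The sources used here do not say whether a transduced line was 1 clone or a pool, nor that its replicates were transduced separately, so effects of GALNT7 and of the history of a line cannot be told apart. Values are normalised counts, meaning reads on a gene divided by a size factor of the library, and the reads behind them were 18364512 to 22264533 per library for CWR22RV1 and 21628718 to 24356910 for DU145. The tables of the cell lines were scaled separately, so every test was made within a line.

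In epithelia, cells are held together by tight junctions, adherens junctions and desmosomes. E-cadherin (CDH1) forms the adherens junction, claudins (CLDN7) and occludin (OCLN) span the membrane at the tight junction and are tied to actin by ZO-1 (TJP1), and desmoplakin (DSP) ties desmosomes to keratin filaments. EpCAM (EPCAM) is an adhesion protein of the lateral membrane that binds claudin-7. In the epithelial-mesenchymal transition, cells lose these contacts, switch from E-cadherin to N-cadherin (CDH2) and build vimentin (VIM) filaments. Transcription factors such as ZEB1 and SNAI2 (Slug) are known to drive it by binding short DNA motifs called E-boxes and repressing epithelial genes, CDH1 foremost.

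The E-box that both factors prefer reads CAGGTG on one strand and CACCTG on the other. The 250 bases before each RefSeq transcription start (build GRCh38.p14) were searched for it on both strands. A promoter was given for 7 of the 10 genes. None was given for EPCAM, CDH1 and SNAI2, so these were not searched. Of the 35116 promoters in the table, 17.5% held the motif at least once, 2.53% at least 2 times and 0.122% at least 4 times. The upstream sequences of DSP, of CLDN7 at the second of its 2 listed starts and of VIM are shown 5′ to 3′ in the direction of transcription, because these genes moved in DU145 cells and differ most in the number of motifs. Capitals mark the E-box.
DSP, chr6:7541421-7541670, plus strand: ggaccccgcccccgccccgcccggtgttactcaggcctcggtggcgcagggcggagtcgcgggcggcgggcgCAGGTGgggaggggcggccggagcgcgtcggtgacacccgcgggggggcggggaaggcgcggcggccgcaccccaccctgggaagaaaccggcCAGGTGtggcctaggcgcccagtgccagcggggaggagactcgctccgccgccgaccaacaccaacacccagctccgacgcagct
CLDN7, chr17:7262479-7262728, minus strand: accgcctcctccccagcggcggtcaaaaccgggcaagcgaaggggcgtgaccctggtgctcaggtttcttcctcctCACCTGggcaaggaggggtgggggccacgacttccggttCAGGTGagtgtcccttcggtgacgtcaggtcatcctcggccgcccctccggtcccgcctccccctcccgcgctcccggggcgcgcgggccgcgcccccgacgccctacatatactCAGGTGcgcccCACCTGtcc
VIM, chr10:17227991-17228240, plus strand: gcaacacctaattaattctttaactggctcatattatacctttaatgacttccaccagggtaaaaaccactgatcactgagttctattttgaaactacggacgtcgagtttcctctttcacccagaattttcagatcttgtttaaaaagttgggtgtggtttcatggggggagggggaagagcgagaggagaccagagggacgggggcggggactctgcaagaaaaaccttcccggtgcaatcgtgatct

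DSP held 2 E-boxes, the last of them ending 80 bases before the start. CLDN7 held 4 before its second start, 2 of which lie within the last 20 bases, and 0 before its first. VIM held 0, as did CDH2 at both of its starts. OCLN held 1 before each of its 2 starts, TJP1 held 1 before the first of its 4 starts, and ZEB1 itself held 1 and 2 before the first and the third of its 7 starts. These matches are descriptions of letters in a window and say nothing of binding in these cells.

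GALNT7 served to check the labels. Counts of 862, 1042 and 1093 in the shControl libraries stood against 481, 501 and 400 in the GALNT7 KD libraries. DU145 cells gave 1051, 928 and 913 in the OE control and 1988, 2221 and 2334 in GALNT7 OE. The groups did not overlap in either line, and the log2 fold change was -1.11 in knockdown (standard error 0.129, limma adjusted p=0.0051) and 1.18 in overexpression (standard error 0.0863, limma adjusted p=8.0e-05).

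After knockdown in CWR22RV1 cells, EPCAM and VIM fell and SNAI2 rose, while CDH1, DSP and CLDN7 did not pass the test. A gene was called when its adjusted p in limma was under 0.05, and 3 of the 9 genes tested (those averaging 5 or more normalised counts in the line) were called, 1 higher and 2 lower. Over all 17906 genes tested in this line, 9.06% were called, 5.28% higher and 3.79% lower. The 3 libraries of each group did not overlap for 5 of the 9 genes, against 32.5% of all genes tested. After overexpression in DU145 cells, DSP, CLDN7, EPCAM, TJP1 and VIM rose and CDH1 and SNAI2 fell. That made 7 of 9 genes called, 5 higher and 2 lower, in a comparison that called 43.5% of its 18705 genes, 22.9% higher and 20.5% lower. The groups did not overlap for the same 7 of these 9 genes, against 55.3% of all genes tested. Fold changes are given on the scale of the test, log2(normalised count + 1). The median log2 fold change of all genes tested was -0.0063 in knockdown and -0.011 in overexpression.

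**Figure D1:**
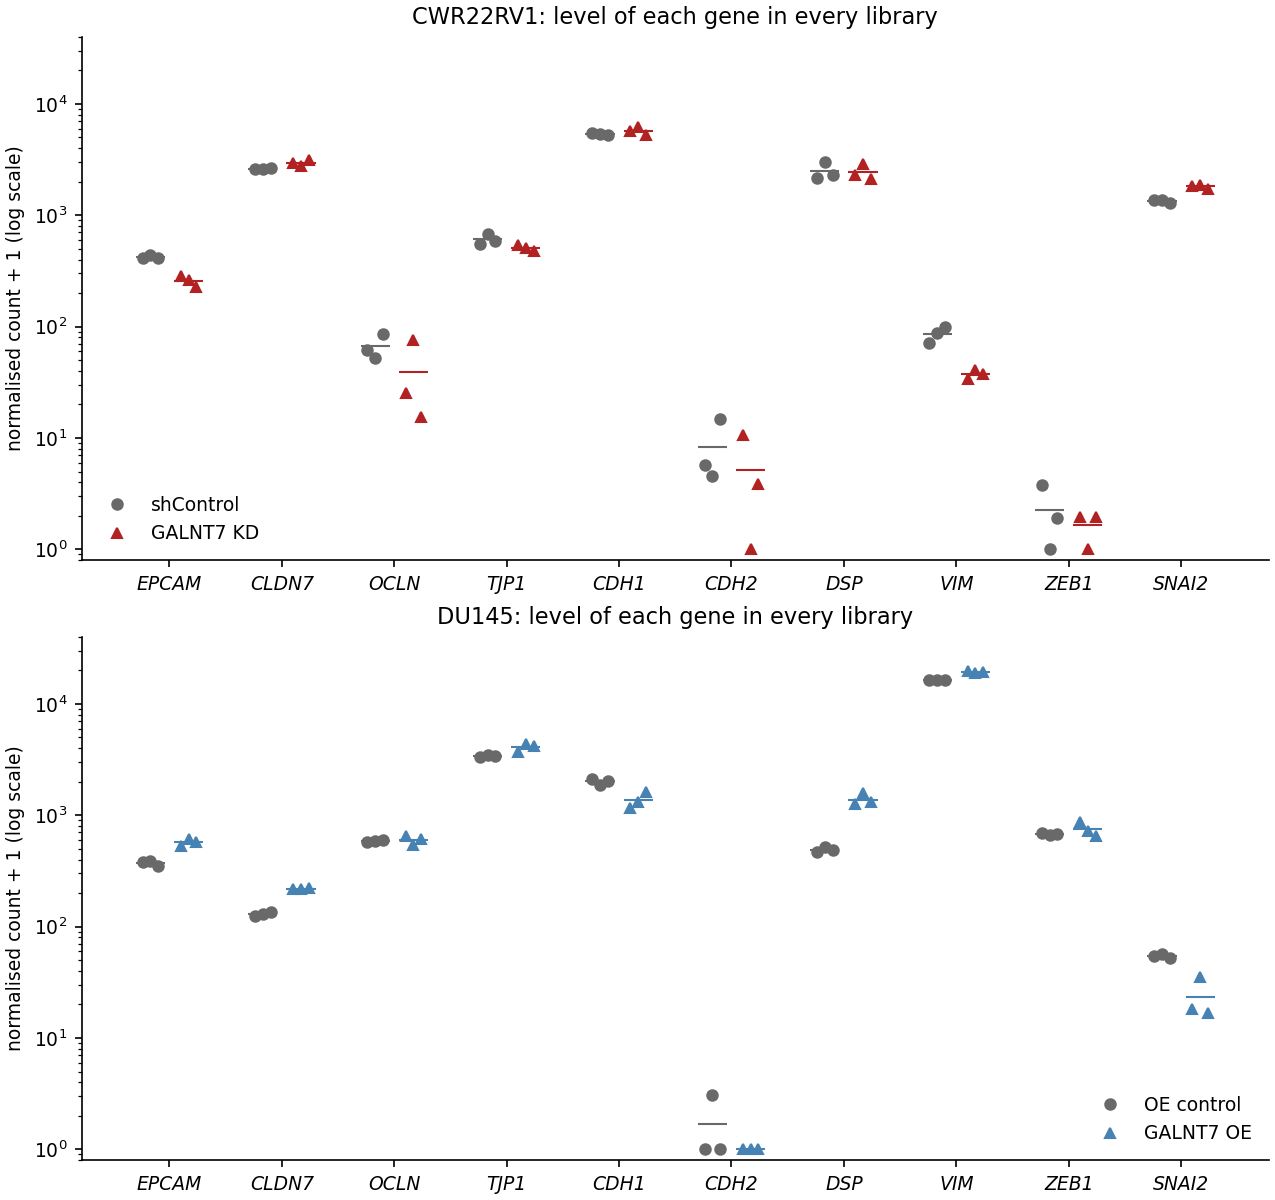
Normalised count plus 1 (log axis) of the 10 genes in each of the 12 libraries, with CWR22RV1 above and DU145 below; points are libraries, triangles the GALNT7 KD or GALNT7 OE libraries, and horizontal lines group means. VIM lies at 16225 to 19758 in DU145 and at 32.9 to 98.9 in CWR22RV1, and ZEB1 is near 0 only in CWR22RV1.

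The 2 cell lines started from different levels of these genes. Counts per kilobase of exon give a rough order of the genes within a line. The length used joins all annotated exons of a gene and can exceed that of the transcripts expressed. The order of genes at close levels is therefore uncertain. On this scale the order in shControl cells was CLDN7 (1052 normalised counts per kilobase), CDH1 (863), SNAI2 (395), DSP (248), EPCAM (168), TJP1 (53.8), VIM (16.6), OCLN (9.67), CDH2 (1.48) and ZEB1 (0.143). In that order the libraries of no gene overlapped those of the next. In DU145 control cells the order on the same scale was VIM (3167), CDH1 (326), TJP1 (302), EPCAM (148), OCLN (86.9), ZEB1 (78.5), CLDN7 (51.9), DSP (48.5), SNAI2 (15.7) and CDH2 (0.138). There the neighbours CDH1 and TJP1 overlapped, as did CLDN7 and DSP. CWR22RV1 cells thus had claudin-7 and E-cadherin transcripts at the top and OCLN, CDH2 and ZEB1 at the bottom with VIM just above them, whereas DU145 cells had vimentin at the top with E-cadherin after it. SNAI2 ranked 3 in the line with little vimentin and 9 in the line with much. After knockdown the order in CWR22RV1 was kept, with VIM and OCLN, and CDH2 and ZEB1, now overlapping. After overexpression DSP moved from rank 8 to rank 5 in DU145 cells (136 per kilobase) and CDH1 from rank 2 to rank 4 (221), where it overlapped EPCAM (228).

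EPCAM (ENSG00000119888, chromosome 2 of GRCh38 from 47345158 to 47387601, plus strand) moved with GALNT7 in both lines. In CWR22RV1 cells its normalised count was 414, 440 and 411 in shControl and 282, 263 and 227 in GALNT7 KD. Every knockdown library lay below every control library, and EPCAM was 1.64-fold lower (log2 fold change -0.71, standard error 0.110, limma adjusted p=0.0127). The DU145 values were 378, 388 and 351 in the OE control and 530, 615 and 579 in GALNT7 OE. All 3 overexpression libraries lay above the controls, by 1.54-fold (log2 fold change 0.62, standard error 0.0898, limma adjusted p=0.00156). The knockdown call was lost without shControl replicate 1, where the limma adjusted p was 0.0540, and held without any other library.

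CLDN7 (ENSG00000181885, chromosome 17 from 7259903 to 7263983, minus strand), which encodes the claudin that EpCAM binds, was high in CWR22RV1 cells at 2585, 2607 and 2675 in shControl and 2936, 2776 and 3104 in GALNT7 KD. The knockdown libraries were all higher, but the difference was small and not called (log2 fold change 0.16, 95% interval 0.03 to 0.30 before adjustment, limma adjusted p=0.129). The DU145 level was 124, 129 and 135 in the OE control and 215, 215 and 222 in GALNT7 OE. Here the groups were far apart for their spread, and CLDN7 rose 1.68-fold (log2 fold change 0.75, standard error 0.101, limma adjusted p=0.00118). ELP5, a gene on the opposite strand that shares 38 exonic bases with the 2492 of CLDN7, also rose in DU145 cells, from 794 ± 48.8 to 1407 ± 28.8 (SD, n=3, limma log2 fold change 0.83). The ratio of CLDN7 to ELP5 was 0.164 ± 0.0171 in the OE control and 0.155 ± 0.00566 in GALNT7 OE (SD, n=3), against 2.00 ± 0.0964 and 2.12 ± 0.168 in the CWR22RV1 groups. AC003688.1, on the same strand as CLDN7, shares 269 exonic bases with it and had means of 5.52 in CWR22RV1 and 5.44 in DU145 libraries. The library kit keeps the strand, and whether the counting used it is not given in the sources used here. The part of reads from ELP5 or AC003688.1 in the CLDN7 value was not tested.

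OCLN (ENSG00000197822, chromosome 5 from 69492292 to 69558104, plus strand) was low in CWR22RV1 cells, with 60.7, 51.3 and 84.2 in shControl and 24.2, 74.7 and 14.4 in GALNT7 KD. Knockdown replicate 2 lay among the controls and the other 2 far below them, so no change was called (log2 fold change -1.07, standard error 0.567, limma adjusted p=0.287). Without that library the log2 fold change was -1.72 and the limma adjusted p 0.0451, and without GALNT7 KD replicate 3 they were -0.58 and 0.519. OCLNP1, annotated as an unprocessed pseudogene and named after OCLN, had 18.7, 15 and 22.0 in shControl and 32.9, 10.7 and 14.4 in GALNT7 KD. How alike the 2 sequences are was not measured here. Reads of the pair may have been split between them, which leaves the low OCLN values uncertain. The sum of the pair was 79.3, 66.3 and 106 in shControl and 57.0, 85.3 and 28.9 in GALNT7 KD, and was not tested. In DU145 cells OCLN was 577, 590 and 596 in the OE control and 654, 538 and 605 in GALNT7 OE. The overexpression libraries spread to both sides of the controls, and the 95% interval of the log2 fold change was -0.19 to 0.24.

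TJP1 (ENSG00000104067, chromosome 15 from 29699367 to 29968865, minus strand) gave 554, 677 and 586 in shControl and 542, 502 and 481 in GALNT7 KD. The groups lay just apart, and the lower level was not called (log2 fold change -0.25, standard error 0.103, limma adjusted p=0.185). The DU145 values of TJP1 were 3351, 3453 and 3392 in the OE control and 3680, 4394 and 4185 in GALNT7 OE. It rose 1.20-fold there (log2 fold change 0.26, standard error 0.0697, limma adjusted p=0.0211). This call was the least stable of the 7: it was lost when the libraries were rescaled to their 75th percentile (0.16, limma adjusted p=0.0856) or quantile normalised (0.16, 0.105), without the trend in limma (0.0621), and without any one of OE control replicates 1, 2 and 3 or GALNT7 OE replicates 2 and 3, where the limma adjusted p lay between 0.0503 and 0.0644.

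CDH1 (ENSG00000039068, chromosome 16 from 68737225 to 68835548, plus strand) moved in DU145 cells against EPCAM, CLDN7, TJP1 and DSP. It was 2126, 1876 and 2047 in the OE control and 1150, 1322 and 1615 in GALNT7 OE. Every overexpression library lay below every control, and E-cadherin mRNA was 1.49-fold lower (log2 fold change -0.58, standard error 0.125, limma adjusted p=0.00917). In CWR22RV1 cells CDH1 was 5471, 5304 and 5217 in shControl and 5706, 6146 and 5279 in GALNT7 KD. These groups overlapped, and the interval of the log2 fold change, -0.05 to 0.24, includes 0 (limma adjusted p=0.376). Over the 12 libraries, measured as the root mean square difference of log2 values set to the mean of each line's control, the genes with the pattern most like that of CDH1 were BET1 (0.0860), AL356488.3 (0.0905) and FAM210B (0.0908), where the median over 11492 genes was 0.445.

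CDH2 (ENSG00000170558, chromosome 18 from 27950966 to 28177446, minus strand), which encodes N-cadherin, was at the edge of detection in both lines. In CWR22RV1 cells it was 4.67, 3.54 and 13.7 in shControl and 9.67, 0 and 2.89 in GALNT7 KD, with overlapping groups and an interval of the log2 fold change from -3.32 to 1.19. In DU145 cells 2 reads were counted in OE control replicate 2 and 0 in the other 5 libraries. The mean of 0.341 is under the 5 normalised counts needed for the test, so CDH2 was not tested there. All 6 values are also under the floor of 3 reads per library, and no fold is given. CDH1 thus fell in DU145 cells while CDH2 was under the floor in both groups.

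**Figure D2:**
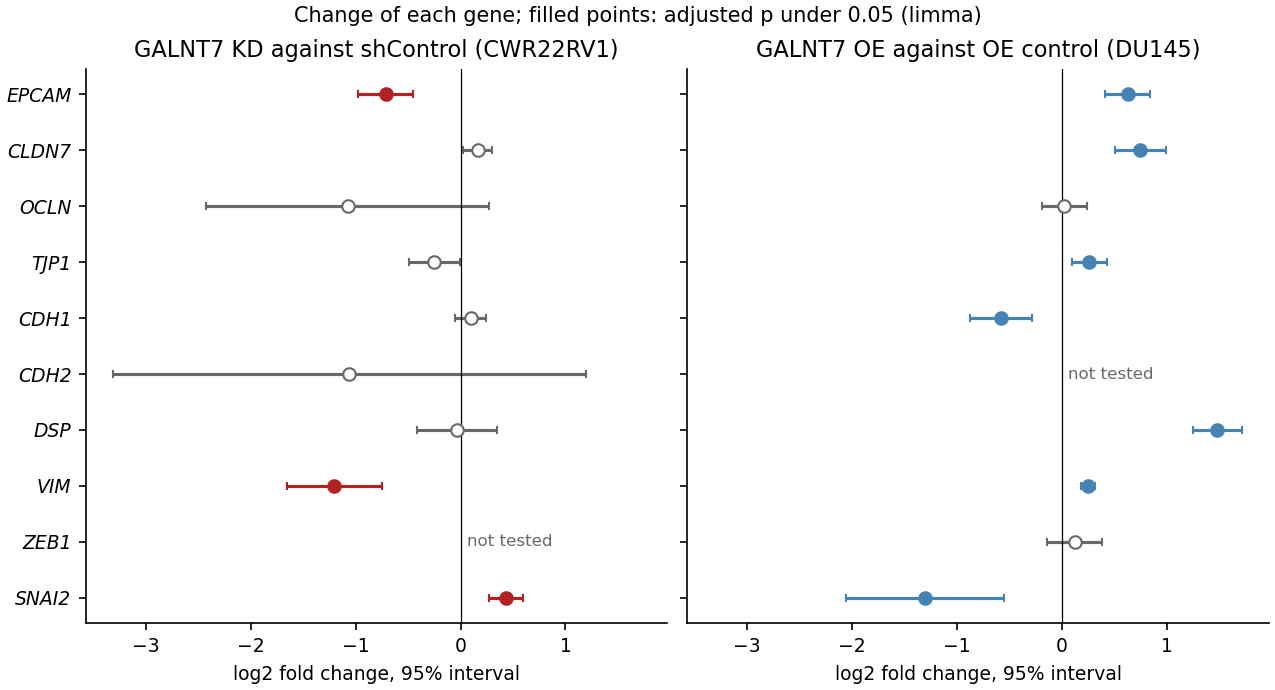
Log2 fold change of each gene, with its 95% interval from limma, for GALNT7 KD against shControl in CWR22RV1 (left) and GALNT7 OE against OE control in DU145 (right); filled points passed an adjusted p of 0.05. EPCAM, VIM and SNAI2 are filled on both sides, with opposite signs, and DSP has the highest point at 1.48.

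DSP (ENSG00000096696, chromosome 6 from 7541575 to 7586717, plus strand) had the largest change of the 10 genes in DU145 cells. It was 471, 516 and 483 in the OE control and 1250, 1568 and 1310 in GALNT7 OE. The lowest overexpression library was above 2 times the highest control, and desmoplakin mRNA rose 2.79-fold (log2 fold change 1.48, standard error 0.100, limma adjusted p=5.6e-05). In CWR22RV1 cells DSP was 2167, 3027 and 2302 in shControl and 2292, 2894 and 2112 in GALNT7 KD. In both groups replicate 2 was the highest, the groups overlapped, and the log2 fold change was -0.036 with an interval of -0.42 to 0.35.

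VIM (ENSG00000026025, chromosome 10 from 17228259 to 17237593, plus strand), the mesenchymal intermediate filament, moved with GALNT7 in both lines from very different levels. It was 70.9, 86.6 and 98.9 in shControl and 32.9, 39.5 and 36.6 in GALNT7 KD. The groups were clearly apart, and VIM was 2.30-fold lower (log2 fold change -1.20, standard error 0.191, limma adjusted p=0.0140). Leaving out shControl replicate 2, shControl replicate 3 or GALNT7 KD replicate 1 gave limma adjusted p values of 0.0520, 0.0564 and 0.0589. In DU145 cells VIM was 16354, 16431 and 16225 in the OE control and 19758, 19040 and 19347 in GALNT7 OE. The controls lay within a narrow range and all overexpression libraries above it, a rise of 1.19-fold (log2 fold change 0.25, standard error 0.0279, limma adjusted p=5.2e-04). Rescaling to the 75th percentile or quantile normalisation made this log2 fold change 0.15 or 0.16, still called. The fall in CWR22RV1 cells thus started from a low level, and the rise in DU145 cells was a small ratio on the highest level of the 10 genes in that line. VIM-AS1, which shares 641 exonic bases with VIM on the opposite strand, ranged from 7.32 to 13.1 among the shControl libraries and from 3.87 to 8.67 among those of GALNT7 KD, with means of 59.6 and 69.4 in the DU145 groups, and was not called (limma adjusted p=0.407 and 0.837). The genes with the pattern most like that of VIM over the 12 libraries were DAZAP2 (root mean square difference 0.142), TMEM170B (0.149) and MT1E (0.212), where the median over 11492 genes was 0.682.

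ZEB1 (ENSG00000148516, chromosome 10 from 31318495 to 31529814, plus strand) had 3, 0 and 1 reads in the shControl libraries and 1, 0 and 1 in GALNT7 KD, at or under the floor of 3 reads, and was not tested in CWR22RV1 cells. In DU145 cells it was 693, 663 and 681 in the OE control and 863, 720 and 650 in GALNT7 OE. One overexpression library was above the rest and another below all controls, so no change was called (log2 fold change 0.12, interval -0.14 to 0.38, limma adjusted p=0.405). Its antisense neighbour ZEB1-AS1 was read in both lines, at 159, 126 and 143 in shControl and 82.2, 59.7 and 94.4 in GALNT7 KD. It fell in knockdown although ZEB1 itself was near 0 (log2 fold change -0.86, standard error 0.203, limma adjusted p=0.0472), a call lost without any one library but GALNT7 KD replicate 3 (limma adjusted p up to 0.149). In DU145 cells ZEB1-AS1 was 149, 205 and 95.7 in the OE control and 97.2, 75.8 and 97.5 in GALNT7 OE, with overlapping groups (limma adjusted p=0.0955). RIN2 (root mean square difference 0.268), TRIM3 (0.279) and TMEM147-AS1 (0.286) had the pattern most like that of ZEB1, a likeness that rests on 6 libraries with almost no ZEB1 reads (median over 11493 genes 0.562).

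SNAI2 (ENSG00000019549, chromosome 8 from 48917604 to 48921740, minus strand) moved against GALNT7 in both lines. In CWR22RV1 cells it was 1371, 1373 and 1275 in shControl and 1839, 1885 and 1705 in GALNT7 KD. All knockdown libraries lay above the controls, and SNAI2 rose 1.35-fold (log2 fold change 0.43, standard error 0.0665, limma adjusted p=0.0126). Without shControl replicate 1, shControl replicate 3 or GALNT7 KD replicate 1 the limma adjusted p was 0.0503, 0.0514 and 0.0614. SNAI2 was low in DU145 cells, with 53.5, 55.2 and 51.4 in the OE control and 17, 34.2 and 15.7 in GALNT7 OE. Overexpression replicate 2 lay between the other 2 and the controls, and SNAI2 was 2.47-fold lower (log2 fold change -1.31, standard error 0.316, limma adjusted p=0.0145).

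Of the 8 genes tested in both lines, EPCAM, VIM and SNAI2 were called in both, and all 3 changed in opposite directions when GALNT7 was lowered and when it was raised. Among the 16124 genes tested in both lines, 2.88% were called in opposite directions. An epithelial gene (EPCAM) and a mesenchymal gene (VIM) moved the same way in each line, and SNAI2 the other way. DSP, CLDN7, TJP1 and CDH1 were called in DU145 cells alone, and whether their responses differ between the lines was not tested. The 10 genes did not move as a block from one state to the other: in DU145 cells VIM rose with DSP, CLDN7, TJP1 and EPCAM, and CDH1 fell with SNAI2.

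**Figure D3:**
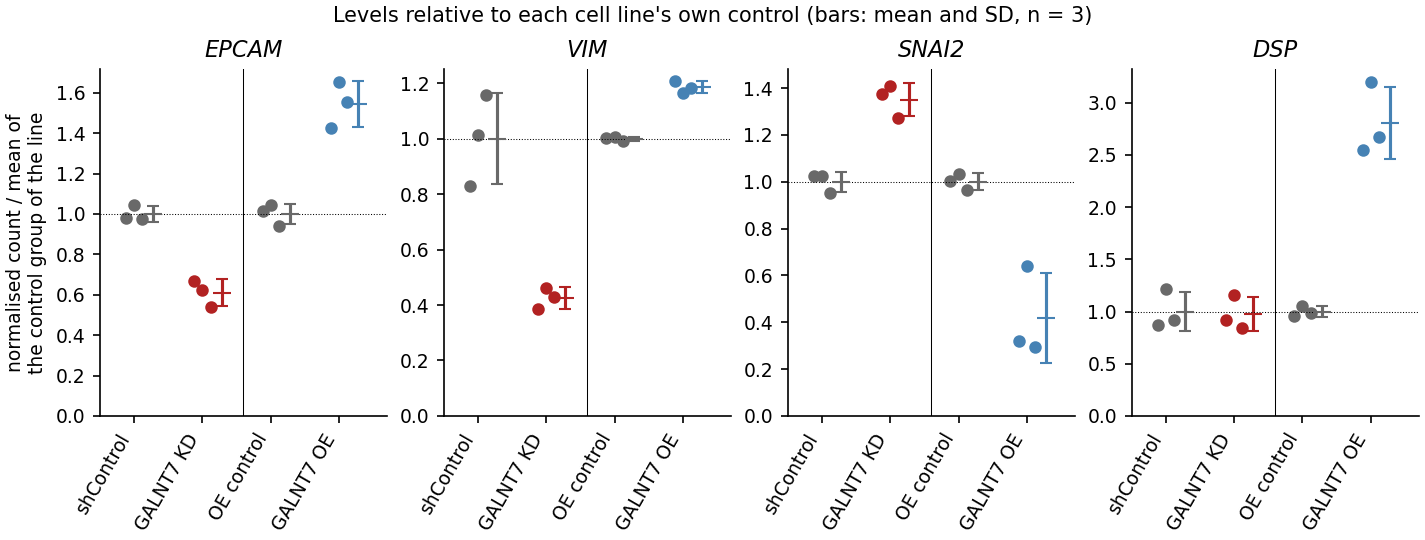
Normalised counts of EPCAM, VIM, SNAI2 and DSP divided by the mean of the control group of the same cell line; points are libraries and bars the mean and SD of 3. EPCAM and VIM lie below 1 in GALNT7 KD and above it in GALNT7 OE, and SNAI2 the reverse. DSP libraries lie on both sides of 1 in both CWR22RV1 groups, and all lie above it in GALNT7 OE.

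Other genes of the same structures were read from lists of related genes, whose counts stand beside the 43.5% of all genes called in DU145 cells (22.9% higher, 20.5% lower) and the 9.06% called in CWR22RV1 cells. EPCAM itself rose in DU145 cells while genes tied to it fell: of 8 tested genes, mainly its tetraspanin and CD44 partners and the matriptase system of membrane proteases, 0 were higher and 6 lower (median log2 fold change -0.64). The protease inhibitor gene SPINT1 fell from 1548 ± 91.0 to 448 ± 37.4 and the tetraspanin gene CD9 from 3858 ± 42.7 to 2474 ± 110 (SD, n=3). In CWR22RV1 cells 0 of the 7 genes tested were called (median 0.069).

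Among 21 further tight junction genes, 19 were tested in each line. In DU145 cells 4 were higher and 11 lower, with a median log2 fold change of -0.39. CLDN7 was the exception among claudins, although the part of reads from ELP5 in its value was not tested. All 6 other claudin genes of the list that were tested there (CLDN1, CLDN3, CLDN4, CLDN11, CLDN12 and CLDN23) fell. They did so also after rescaling to the 75th percentile, after quantile normalisation and in edgeR with TMM. CLDN4 was 604, 615 and 571 in the OE control and 294, 286 and 246 in GALNT7 OE (log2 fold change -1.12, limma adjusted p=0.000159). CLDN3 fell by 0.95 on the log2 scale, and TJP3, which encodes ZO-3, by 1.63, from 459 ± 92.1 to 147 ± 23.4 (SD, n=3). The scaffold genes CGN, PATJ and PALS1 rose, like TJP1. In CWR22RV1 cells 2 of 19 were called (10.5%, near the 9.06% of all genes), both lower and both claudins (median -0.036). CLDN4 was 629, 620 and 628 in shControl and 320, 304 and 389 in GALNT7 KD (log2 fold change -0.90, limma adjusted p=0.00668), so that CLDN4 fell both when GALNT7 was lowered and when it was raised. CLDN3 was lower as well, at 41.0 ± 3.36 and 11.1 ± 5.01 (SD, n=3), a call lost without any one of 4 libraries (shControl replicates 1, 2 and 3 and GALNT7 KD replicate 1, limma adjusted p up to 0.0853).

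**Figure D4:**
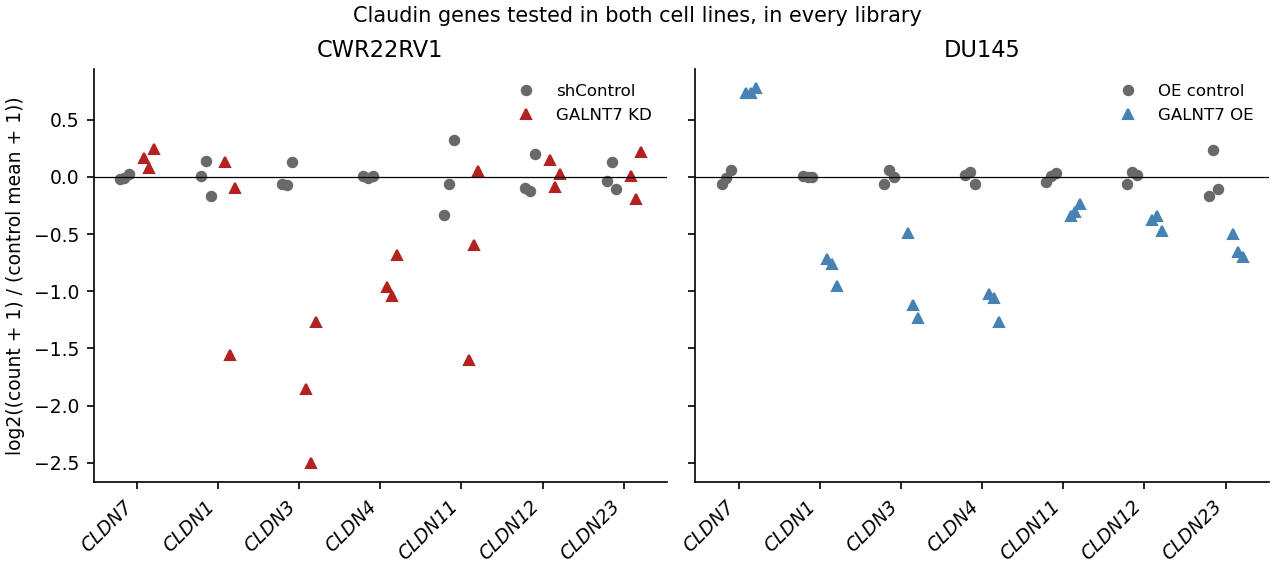
Log2 ratio of the normalised count plus 1 to the control mean plus 1 for the 7 claudin genes tested in both lines, in every library; grey points are control libraries and triangles GALNT7 KD (left) or GALNT7 OE (right). In DU145 only CLDN7 lies above its control; in CWR22RV1 CLDN3 and CLDN4 lie below theirs.

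Of the adherens junction genes other than CDH1 and CDH2, 9 were tested in DU145 cells and 1 was higher and 6 lower (median -0.23). Vinculin (VCL), which links the junction to actin, fell from 15070 ± 256 to 10497 ± 473, afadin (AFDN) from 4398 ± 135 to 3229 ± 321 and NECTIN2 from 3078 ± 192 to 2390 ± 114 (SD, n=3). CTNNA1, which encodes alpha-catenin, rose by 0.25 on the log2 scale. CTNNB1, for beta-catenin, was not called (log2 fold change -0.11). In CWR22RV1 cells 1 of 10 was called, NECTIN4, at 33.9 ± 7.18 and 10.7 ± 3.48 (SD, n=3), with a list median of -0.10.

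Of 11 desmosome genes tested in DU145 cells, 3 were higher and 3 lower (median 0.028), and these shares are near those of all genes in each direction. DSP was joined by PKP4, which rose from 1622 ± 423 to 2768 ± 286, while JUP, encoding the plakoglobin that links desmoplakin to the desmosomal cadherins, fell from 3463 ± 30.1 to 1567 ± 86.1 (SD, n=3; log2 fold change -1.14, limma adjusted p=1.3e-05). The desmocollin gene DSC3 fell as well (log2 fold change -0.65). Desmoplakin mRNA thus went from 490 to 1376 and plakoglobin mRNA from 3463 to 1567. These counts are not set to gene length, so they do not compare the amounts of the 2 mRNAs with each other. In CWR22RV1 cells the desmosomal cadherin genes DSG2 (4200 ± 109 to 5513 ± 418, SD, n=3) and DSC2 (133 ± 15.5 to 213 ± 29.3, SD, n=3) were the 2 called of 10, both higher, although DSP was not called (list median -0.098). Without the trend in limma neither was called.

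Genes that maintain the epithelial state gave 3 higher and 2 lower of 9 tested in DU145 cells (median 0.45). ESRP1, a splicing regulator of epithelial cells, was 14.3, 17.4 and 16.1 in the OE control and 64.1, 87.8 and 111 in GALNT7 OE, which is a 5.12-fold rise (log2 fold change 2.36, limma adjusted p=0.00039). Its paralogue ESRP2 rose from 348 ± 23.4 to 613 ± 76.1 (SD, n=3). The epithelial transcription factor genes ELF3, at 3824 ± 136 and 923 ± 15.1, and KLF4, at 307 ± 16.2 and 171 ± 12.1, fell (SD, n=3). In CWR22RV1 cells 0 of 11 were called (median 0.071), and ESRP1 stood at 4002 ± 147 in shControl (SD, n=3).

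Among 12 further transcription factors of the transition, 9 were tested in DU145 cells and 2 called. ZEB2, the paralogue of ZEB1, was 120, 100 and 92.7 in the OE control and 52.1, 51.7 and 62.9 in GALNT7 OE (log2 fold change -0.89, limma adjusted p=0.00517). TCF3 rose by 0.31 (list median -0.16). In CWR22RV1 cells 0 of 7 were called (median -0.13), and ZEB2 had a mean of 0.311 in shControl and 0 in knockdown.

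Of 26 mesenchymal genes other than VIM and CDH2, 18 were tested in each line. In DU145 cells 3 were higher and 9 lower, with a median of -0.57, so that VIM rose where 9 of 18 of these genes fell (20.5% of all genes tested were lower). LOX, which crosslinks collagen, was 1196, 1128 and 1187 in the OE control and 156, 185 and 181 in GALNT7 OE (log2 fold change -2.74, limma adjusted p=3.9e-06). COL1A1 fell from 334 ± 73.6 to 90.6 ± 55.4 and FBN1, for fibrillin-1, from 322 ± 80.1 to 105 ± 36.3 (SD, n=3). AXL, S100A4 and LGALS1 were the 3 that rose. In CWR22RV1 cells 3 were higher and 1 lower (median 0.0073). The fibronectin gene FN1 was 9223, 11475 and 9636 in shControl and 15464, 17852 and 13438 in GALNT7 KD (log2 fold change 0.62, limma adjusted p=0.026), FSTL1 rose by 0.74 and LGALS1 by 0.39, and COL6A1 fell by 1.06. Without the trend in limma, 0 of the 3 higher genes were called. FN1 thus rose where VIM fell, and in DU145 cells it fell, from 1717 ± 24.6 to 662 ± 94.2 (SD, n=3), where VIM rose.

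**Figure D5:**
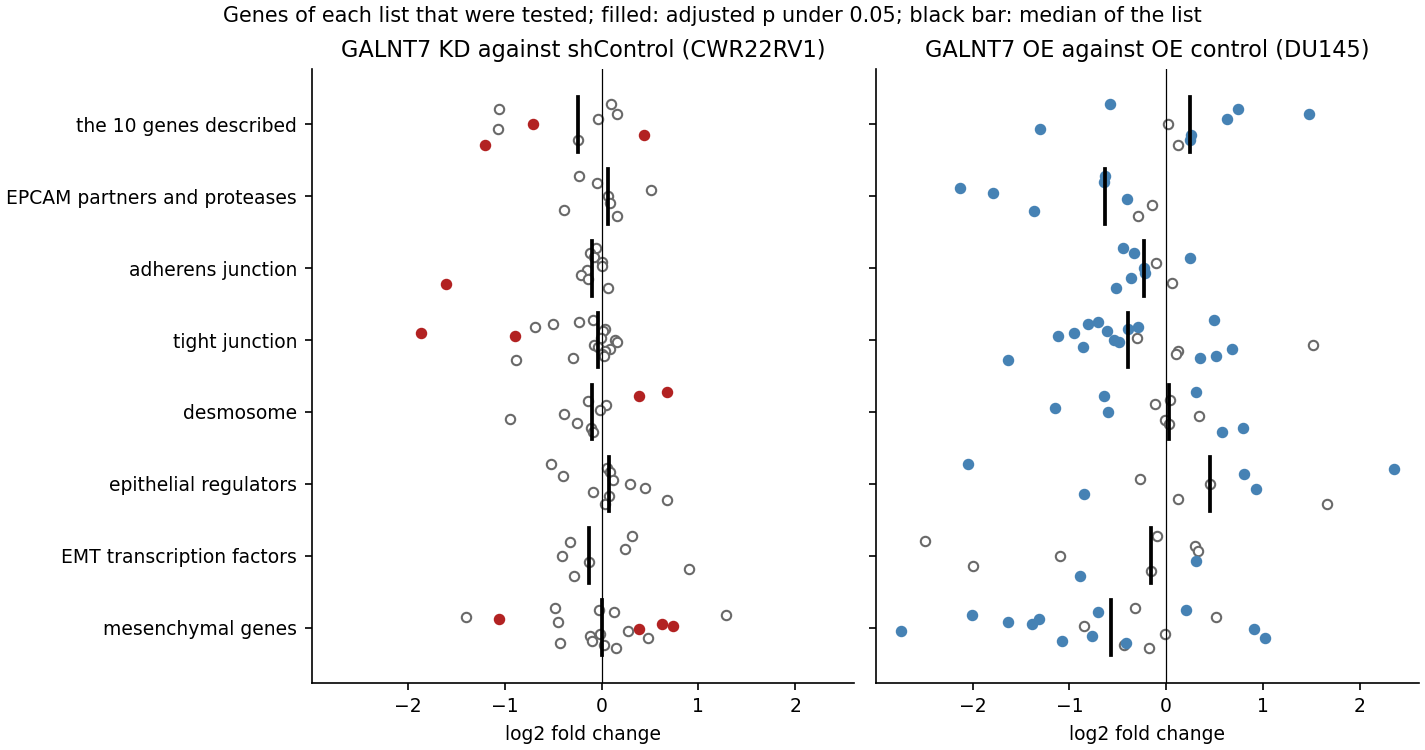
Log2 fold change of every tested gene of each list in CWR22RV1 (left) and DU145 (right); filled points passed an adjusted p of 0.05 in limma and black bars are list medians. In DU145 the medians of the EPCAM partners, adherens junction, tight junction and mesenchymal lists lie at -0.64, -0.23, -0.39 and -0.57, and that of the 10 genes described at 0.25.

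Of the 9 genes called in these lists in CWR22RV1 cells, 8 lost the threshold when at least 1 of the 6 libraries was left out, CLDN4 being the exception, and none changed sign. FSTL1 and LGALS1 lost it without any one of the 6, and DSC2 and NECTIN4 without any one but GALNT7 KD replicate 3. FN1 lost it without shControl replicates 1 or 3 or GALNT7 KD replicates 1 or 2, DSG2 without shControl replicates 1 or 3 or GALNT7 KD replicate 1, and COL6A1 without shControl replicate 1 or GALNT7 KD replicate 1, with limma adjusted p values of at most 0.131 over these genes. In DU145 cells 48 of 53 were called whichever library was left out. The others, CGN, CTNND1, DSC3, GRHL3 and NECTIN1, each lost it without any one of 4 or 5 libraries (limma adjusted p up to 0.127). Fewer cells of a type and less RNA per cell cannot be told apart in these bulk libraries. The keratin genes of prostate luminal epithelium marked both lines, with KRT8 at 10727 and KRT18 at 6199 in shControl and at 12979 and 9896 in the OE control. Of 7 prostate epithelial markers, 2 rose, KLK3 among them, and 3 fell (KRT18, FOLH1, TMPRSS2) in knockdown, with a summed count of 34296 to 34999 in shControl and 33551 to 35395 in GALNT7 KD. The calls of KRT18 and FOLH1 were lost without any one of 4 or 5 libraries (limma adjusted p up to 0.0880 and 0.123). In DU145 cells 3 were tested and 1 fell, with sums of 22825 to 24460 and 20908 to 23724, and KLK3 was at 0 in all 6 libraries.

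Markers of other cell types moved in part. Among 4 fibroblast markers in CWR22RV1 cells, LUM rose from 225 ± 26.3 to 626 ± 45.6 and PDGFRA fell from 20.3 ± 10.2 to 0.678 ± 0.589 (SD, n=3), with sums of 264 to 292 in shControl and 657 to 706 in GALNT7 KD, beside the higher FN1 and FSTL1. The PDGFRA call was lost without shControl replicate 3 (limma adjusted p=0.0558). The part of these markers in the changes of FN1 and FSTL1 was not tested. In DU145 cells 0 of 2 tested fibroblast markers were called, LUM was at 0 throughout and the sums were 14.1 to 26.7 and 10.5 to 23.1. Of 4 leukocyte markers CD14 fell in DU145 cells from 90.4 ± 31.0 to 28.1 ± 2.11 (SD, n=3; sums 67.5 to 124 and 26.8 to 34.1), and CD3E was at 0 in both lines. In CWR22RV1 cells the leukocyte sums were 2.75 to 6.53 and 5.33 to 7.73, with 0 of 4 tested. The 4 endothelial markers gave 0 calls in either line, with sums of 0 to 2.75 and 0 to 3.87 in the CWR22RV1 groups and 32.7 to 36.3 and 14.0 to 55.6 in the DU145 groups.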

How the data were processed

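The authors deposited 1 table of normalised counts per cell line, a signal made by dividing the reads of each gene by a size factor of the library. Per the labels, libraries were made with the TruSeq Stranded mRNA kit. The submitters' processing notes name R 3.5.3, FastQC, Salmon, DESeq2 and hg38, and the annotation release is not given in the sources used here. Each value divided by the smallest value above 0 of its library gave whole reads for 100% of the values (tolerance 1e-06).

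Genes were named from GENCODE release 29. limma 3.58.1 (eBayes with trend, R 4.3.3) was fitted within each line to log2(normalised count + 1) over genes with a mean of at least 5, and genes were called at a Benjamini-Hochberg adjusted p under 0.05. Fold changes on this scale understate the change of low genes. Labels give 3 biological replicates per group. If these were not separate cultures, p-values measure technical spread only. In a simulation that changed 200 genes, limma found 200 in each design, with 9 false calls in knockdown and 8 in overexpression. The changed genes had means of at least 50 and changes of at least 1 on the log2 scale, and all genes shared 1 dispersion. The simulation thus does not measure how well smaller changes or low genes are found.

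The members and gene lists were chosen with earlier results of these data known. Named were GALNT7, the 10 genes, per list and comparison the up to 3 called genes with a mean of at least 50 and the largest change, and for CDH1, VIM and ZEB1 the 3 genes most alike. Neighbouring genes, markers and other list genes were named after their values were seen. Alternatives were pseudocounts of 0.5 and 5, no filter or a mean of at least 20, rescaling to the 75th percentile, quantile normalisation, eBayes without trend, a replicate block, each library left out, a threshold of 0.01, and edgeR 4.0.16 and DESeq2 1.42.0 on the recovered reads. Some genes that the rule or the lists cover are not reported here by name, although the counts, sums and medians include them.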

Additional observations from a re-analysis of the deposited data

How the results depend on the processing

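The alternatives other than the threshold of 0.01 gave 285 recomputed values of the 10 genes. Of these, 269 kept their side of the threshold, 15 lost the threshold, 1 passed it newly and 0 called values changed sign. The count of the 10 genes called in knockdown was 1 to 4 with a library left out and 0 at an adjusted p of 0.01. In overexpression 5 of the 9 genes tested were called at 0.01, where 5303 of all 18705 genes tested passed. The uncalled DSP in knockdown and OCLN in overexpression changed sign among alternatives. Over all genes, the knockdown count of 1623 was 1002 with the replicate block, 996 without the trend, 2642 by DESeq2, 392 at an adjusted p of 0.01 and 539 to 1336 with a library left out. The overexpression count of 8132 was 5303 at 0.01. At an unadjusted p under 0.05, 4675 and 9677 genes passed. Same-numbered libraries did not vary together (correlations of their deviations from the group means of -0.011, 0.075 and -0.006 in CWR22RV1 and 0.043, 0.043 and 0.016 in DU145), so the numbers were not taken as pairs, although in DU145, unlike CWR22RV1, every library correlated best with its own number. With the replicate block 1 of the 2 desmosome calls in knockdown was left, and all 3 knockdown and all 7 overexpression calls of the 10 genes were kept. Rescaling to the 75th percentile moved the median of all genes in DU145 to -0.11, the largest shift of the scalings tried. Reads at or under 3 per library leave CDH2 in DU145 and ZEB1 in CWR22RV1 cells undecided.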
